A study of Mus musculus with 2 samples.

Results

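The 8 genes described here, *Drosha*, *Dgcr8*, *Xpo5*, *Dicer1*, *Tarbp2*, *Ago1*, *Ago2* and *Dis3l2*, encode core proteins of microRNA processing and were chosen by name, as 8 of the 54146 gene rows in the count tables. They were measured by inDrop single-cell RNA-seq, which captures polyadenylated RNA in droplets and counts each captured molecule once by its unique molecular identifier (UMI), in mouse ES cells derived from the inner cell mass. The 2 libraries were 1 of wild-type cells and 1 of cells with CRISPR/Cas9 knockout of *Lin28a*, each from a single clone. The wild-type cells are labelled untreated, and the study describes their clone as transfected. Both cultures were grown for 2 days with LIF/2i on gelatin over MEF feeder cells, the fibroblasts that support ES cells. Neither condition was replicated, so every difference below compares these libraries or cells within them and not the conditions, and no test was made. The 95% intervals are exact and cover counting error only.

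MicroRNAs are cut from longer transcripts in steps. The nuclease DROSHA and its RNA-binding partner DGCR8 release a hairpin in the nucleus, exportin 5 (from *Xpo5*) carries it to the cytoplasm, DICER1 with the cofactor TRBP (from *Tarbp2*) cuts it to a short duplex, and an Argonaute protein such as AGO1 or AGO2 holds the mature strand against target mRNAs. LIN28A and LIN28B bind the let-7 hairpin and block its maturation, the terminal uridylyl transferases TUT4 and TUT7 add a uridine tail to the bound hairpin, and the exonuclease DIS3L2 degrades tailed hairpins. let-7 is kept low in ES cells and accumulates as they differentiate.

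The mature let-7 microRNAs of the mouse are shown because they are what LIN28 withholds from this machinery. Searched by the names let-7a to let-7i and miR-98, RefSeq (GRCm38.p6) gave 9 mature sequences of the 5′ arm. All 9 shared the seed, bases 2 to 8, which is in capitals and is the part that pairs with targets. Outside the seed, the 5 shown differed from each other.
let-7a-5p: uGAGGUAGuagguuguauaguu
let-7d-5p: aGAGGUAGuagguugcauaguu
let-7e-5p: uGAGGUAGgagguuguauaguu
let-7g-5p: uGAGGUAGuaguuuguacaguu
miR-98-5p: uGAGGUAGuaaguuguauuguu
The 7 bases that pair with this seed, CTACCTC, were searched for on the transcript strand after the stop codon of the longest coding transcript of each of the 8 genes. *Ago2* held 3 matches and *Tarbp2* held 1, and the other 6 genes held none. The matched bases are in capitals, and those of *Ago2* lay at chr15:73101725-73101731, chr15:73100041-73100047 and chr15:73097983-73097989 on the minus strand, all in its exon 19 of 19.
Ago2 site at base 5177 after the stop: acagatgcataaaagCTACCTCt
Ago2 site at base 6861 after the stop: caggtggcctctgtcCTACCTCc
Ago2 site at base 8919 after the stop: ttttacaatgtggatCTACCTCa
Tarbp2 site at base 102 after the stop: ccagaggtgccatctCTACCTCt
The *Tarbp2* site lay at chr15:102523444-102523450 on the plus strand, in exon 9 of 9. Of 8311 coding genes with at least 200 UMIs, 10.5% held the same 7 bases in this part. The stretch after the stop was 11064 bases long in *Ago2*, and 51.4% of the 72 genes with a stretch within 25% of that length held a match. In *Tarbp2* it was 334 bases long, and 3.70% of 730 genes of like length held one. The match describes letters only, and mature microRNAs, which have no poly(A) tail, were not measured.

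After removal of barcodes with fewer than 500 UMIs or more than 20% mitochondrial UMIs, 1856 wild-type and 1622 knockout cells were kept, with medians of 6140 and 5063.5 UMIs. The barcodes carried running numbers in place of sequences, so barcodes that the libraries might share could not be counted. The targeted gene *Lin28a* had 1242 UMIs in wild-type and 342 in knockout cells, or 107 and 36.6 UMIs per 1000000 UMIs (CPM), a ratio of 0.343 (95% interval 0.304–0.387). The guide RNA was aimed at the second exon and the UMIs mark 3′ ends, so this level does not check the edit itself. Summed over 10 ES cell markers the level was 4852 CPM in wild-type and 4907 CPM in knockout cells outside the feeder fibroblasts, with a UMI for each of the 10.

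*Ago2*, the Argonaute that can itself cut a target, was the most abundant of the 8 transcripts in both libraries and supplied 55.3% of their summed UMIs in wild-type cells. The knockout library held less *Ago2*, *Dicer1* and *Dgcr8* and more *Drosha*, *Tarbp2* and *Xpo5* than the wild-type library. *Ago1* and *Dis3l2* could not be separated from equal levels.

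**Figure D1:**
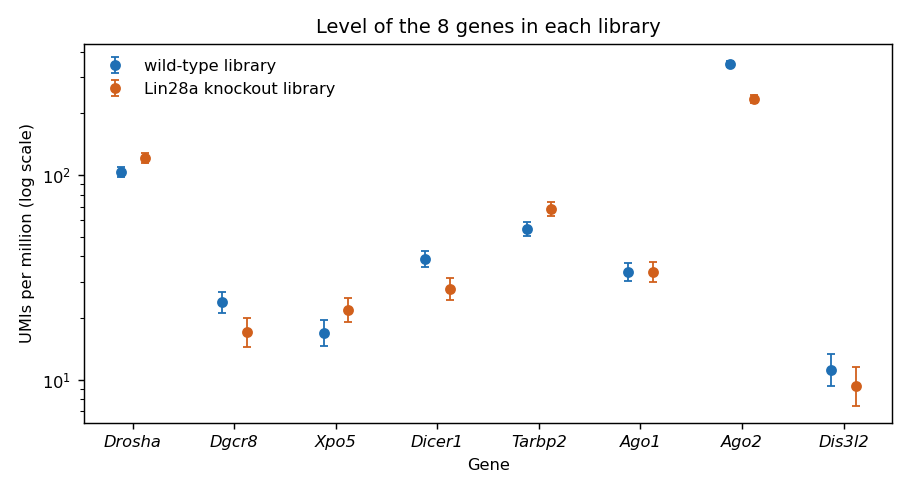
Level of each of the 8 genes in CPM (log axis) for both libraries, wild-type and *Lin28a* knockout, with genes ordered along the pathway. Points are the sum over all kept cells and bars are exact 95% Poisson intervals. *Ago2* stands highest in both libraries, at 349 and 235 CPM, and *Dis3l2* lowest, at 11.2 and 9.31 CPM.

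Of the nuclear pair, *Drosha* (chr15:12824815-12935291, plus strand, GRCm38) had 1202 UMIs in wild-type and 1131 in knockout cells. Its level was 103 CPM (97.5–109) in wild-type cells and 121 CPM (114–128) in knockout cells, a knockout over wild-type ratio of 1.17 (1.08–1.27). *Dgcr8* (chr16:18253948-18289246, minus strand) had 277 and 159 UMIs, levels of 23.8 CPM (21.1–26.8) and 17.02 CPM (14.5–19.9), and a ratio of 0.715 (0.585–0.872). The genes of this pair therefore stood on opposite sides of equality, and their intervals did not overlap. *Dgcr8* shares 825 exon bases with *Trmt2a* on the opposite strand, whose own ratio was 1.11 (0.941–1.31), and 327 with the gene model *Gm49776* on its own strand, whose ratio was 0.739 (0.649–0.842). The files count few UMIs as ambiguous for the 8 genes, 2 against 7631 counted over all wild-type barcodes and 4 against 5387 over all knockout barcodes, and whether the counting used strand is not stated.

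*Dgcr8* also carries a microRNA. The *Mir1306* hairpin lies at chr16:18284239-18284317, inside a coding exon of *Dgcr8* and on its strand, and its mature strands are shown with their seeds in capitals because DROSHA and DGCR8 are known to cut hairpins within this mRNA.
miR-1306-5p: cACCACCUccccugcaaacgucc
miR-1306-3p: aCGUUGGCucugguggugaug
The *Mir1306* row itself held 2 UMIs in wild-type and 3 in knockout cells, too few for a comparison.

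*Xpo5* (chr17:46202782-46243598, plus strand), the exporter, had 197 UMIs in wild-type and 205 in knockout cells. Its levels were 16.9 CPM (14.6–19.5) and 21.9 CPM (19.0–25.2), and its ratio of 1.30 (1.06–1.58) was the largest of the 8. It was among the least abundant members in wild-type cells, above *Dis3l2* alone.

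In the cytoplasmic step, *Dicer1* (chr12:104687742-104751952, minus strand) had 452 and 260 UMIs, and levels of 38.8 CPM (35.3–42.6) and 27.8 CPM (24.6–31.4). The ratio was 0.717 (0.613–0.837). Its cofactor *Tarbp2* (chr15:102518192-102523676, plus strand) had 636 UMIs in each library, which at the smaller total of the knockout library made 54.6 CPM (50.5–59.1) and 68.1 CPM (62.9–73.6), a ratio of 1.25 (1.11–1.39). As in the nuclear step, the nuclease and its RNA-binding partner thus stood on opposite sides of equality, but here the nuclease was the one lower in the knockout library.

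*Ago2* (chr15:73095844-73184935, minus strand) had 4058 UMIs in wild-type and 2193 in knockout cells. Its levels were 349 CPM (338–360) and 235 CPM (225–245), and its ratio of 0.673 (0.639–0.709) was the smallest of the 8. It shares 219 exon bases with *Chrac1* on the opposite strand, whose 208 and 191 UMIs gave a ratio of 1.14 (0.935–1.40). *Ago1* (chr4:126435012-126468583, minus strand) had 389 and 315 UMIs, 33.4 CPM (30.2–36.9) and 33.7 CPM (30.1–37.7), and a ratio of 1.01 (0.867–1.17). *Dis3l2* (chr1:86703808-87050095, plus strand) had 130 and 87 UMIs, 11.2 CPM (9.33–13.3) and 9.31 CPM (7.46–11.5), and a ratio of 0.834 (0.628–1.10), so that a difference in either direction remains within its interval. Without the deepest 5% of barcodes the *Dis3l2* ratio was 0.712 (0.521–0.967), an interval below 1.

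None of the 8 genes differed between the libraries by more than 1.5-fold, though *Ago2* lay near that limit. It passed it without cells under 5% RP share (0.664), without the deepest 5% of barcodes (0.651) and with median of ratios scaling (0.650), and *Dgcr8* passed it without the deepest 5% of barcodes (0.661). Among the 9835 genes with at least 200 UMIs over both libraries, 8.45% were lower and 6.49% higher in the knockout library by that much. The intervals of 3 members lay below 1, those of 3 above it and those of 2 on both sides. No share of all genes by this measure is given here, so these counts are not a result about the members. The median ratio of the 8 was 0.922 and that of all 9835 genes 1.01. Ranked among all those genes, *Ago2* had a smaller ratio than most, with 8.97% of genes below it, and 12.4% lay below *Dgcr8* and 12.5% below *Dicer1*. At the other end, 79.7% of genes lay below *Tarbp2* and 83.8% below *Xpo5*. The 8 summed gave 631 CPM (616–645) in wild-type and 534 CPM (519–549) in knockout cells, a ratio of 0.846 (0.816–0.877). This sum was decided by *Ago2*. Without it the ratio was 1.06 (1.01–1.12), whereas leaving out any other member gave 0.782 to 0.855.

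**Figure D2:**
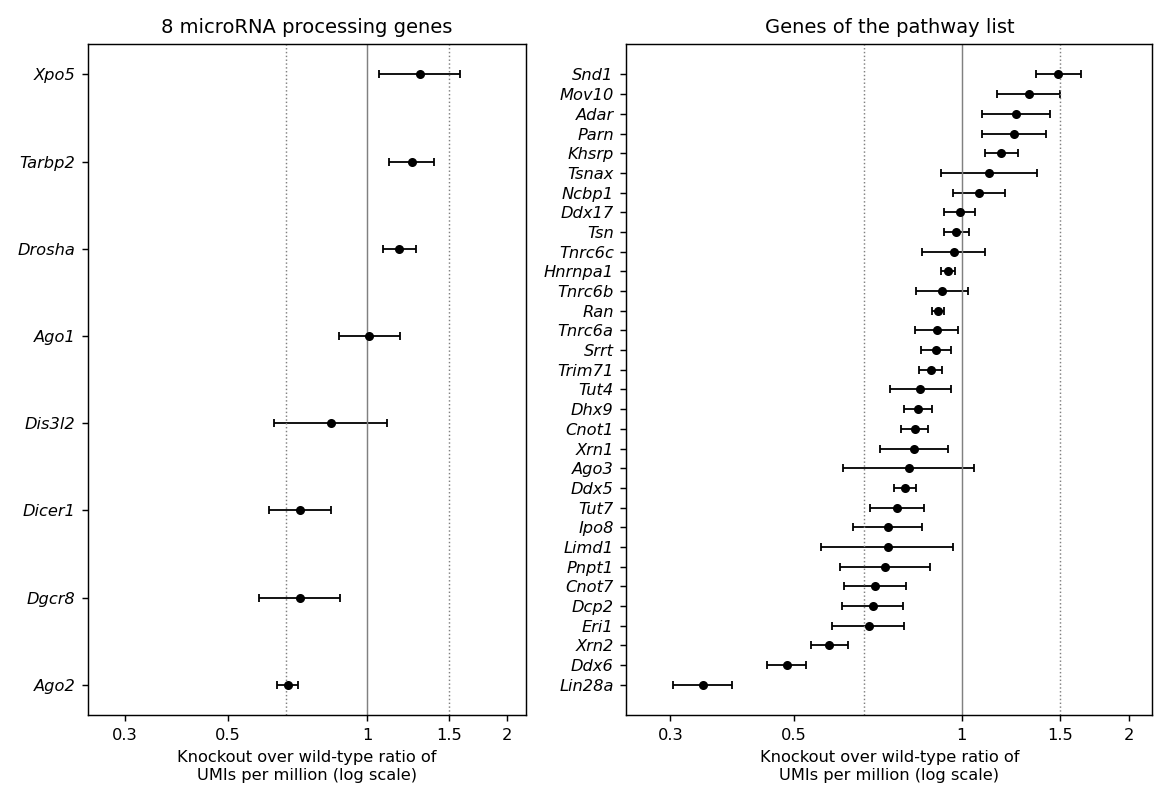
Ratio of CPM, knockout over wild-type library, on a log axis for the 8 genes (left) and the 32 genes of the pathway list with at least 200 UMIs (right). Bars are exact 95% intervals, the solid line marks equal levels and the dotted lines 1.5-fold either way; *Ago2* at 0.673 lies just inside the lower dotted line and *Lin28a*, *Ddx6* and *Xrn2* lie beyond it.

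The order of the levels was alike at the top. In wild-type cells it ran *Ago2*, *Drosha*, *Tarbp2*, *Dicer1*, *Ago1*, *Dgcr8*, *Xpo5* and *Dis3l2*, and only the intervals of the neighbours *Dicer1* and *Ago1* overlapped. *Ago2* stood 3.38-fold above *Drosha* there and 1.94-fold above it in knockout cells. In the knockout library *Ago1*, *Dicer1*, *Xpo5* and *Dgcr8* followed *Tarbp2*, each overlapping with its neighbour in that run, and *Dis3l2* was again last. These levels are UMIs of transcript 3′ ends and were not divided by length. Per kb of exons, *Drosha* (20.4 CPM per kb) stood above *Ago2* (16.7 CPM per kb) in the knockout library but not in the wild-type library (17.4 and 24.8 CPM per kb).

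Most cells held few of these transcripts. A cell had a UMI for a median of 2 of the 8 genes in both libraries, and 208 wild-type and 409 knockout cells had none. A single cell, in the wild-type library, had all 8. Of the wild-type cells 75.7% (73.7–77.6%) had an *Ago2* UMI, and of the knockout cells 52.0% (49.6–54.5%), with 2 or more UMIs in 1022 and 505 cells. With each cell taken at 500 UMIs, the shares were 15.8% and 10.4%. *Drosha* was found in 43.0% and 40.9% of cells, but in 4.85% and 5.42% at 500 UMIs, so the order of the libraries turned once depth was equal. *Tarbp2* was found in 26.9% and 27.6% of cells (2.48% and 3.22% at 500 UMIs) and *Dicer1* in 20.04% and 13.6% (2.01% and 1.72%). The other 4 genes were found in 4.99% to 17.9% of cells. All cell types use these genes, so no cells here should lack them, and free RNA was gauged with *Lin28a*, which fibroblasts should lack. Among feeder fibroblasts, 3 of 41 wild-type and 1 of 21 knockout cells had it, at 7.37 and 9.20 CPM, or 0.318% and 0.719% of fibroblasts at 500 UMIs. The 10 ES cell markers, of which 1 was higher in wild-type fibroblasts, summed to 973 and 984 CPM in fibroblasts, against 4852 and 4907 CPM in the other cells. Over all cells, the lowest shares at 500 UMIs among the 8 were those of *Dis3l2* (0.558% and 0.438%), *Xpo5* (0.783% and 1.16%) and *Dgcr8* (1.16% and 0.920%). The *Lin28a* values in fibroblasts rest on 3 and 1 UMIs, and free RNA of a gene depends on that gene's own level. They therefore set no floor for the 8 genes, and how many UMIs of the 8 came from free RNA was not tested.

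The level of several members differed with the percentage of UMIs that each cell spent on the 89 ribosomal protein (RP) genes, in the same direction in both libraries. From cells of 5 to 10% RP share to cells of 15% or more, *Ago2*, *Ago1* and *Dgcr8* were lower and *Tarbp2*, *Xpo5* and *Drosha* higher. There were 233 wild-type and 365 knockout cells of 15% or more, against 895 and 427 of 5 to 10%. The RP share does not use the 8 genes.

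**Figure D3:**
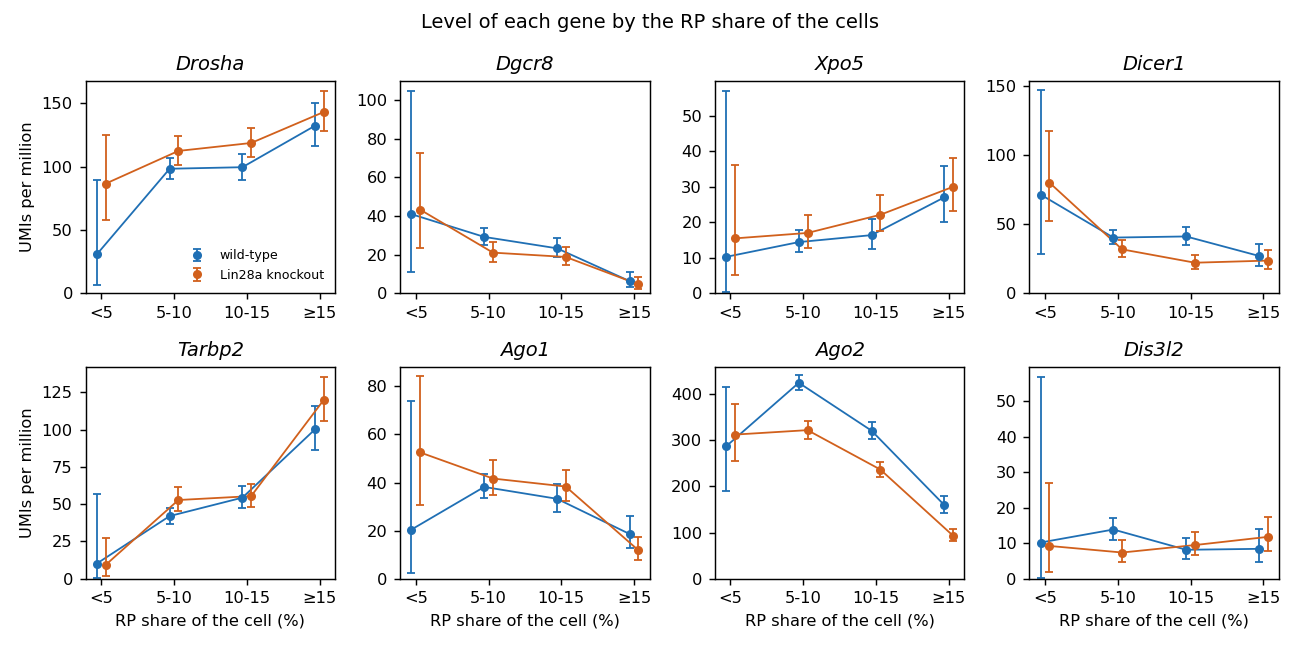
Level of each gene in CPM by the RP share of the cells, under 5%, 5 to 10%, 10 to 15% and 15% or more, for both libraries. Points are sums over the cells of a bin and bars are exact 95% Poisson intervals; in the last bin *Tarbp2* stands at its highest, 100 and 120 CPM, and *Ago2* at its lowest, 159 and 93.1 CPM.

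*Ago2* stood at 424 CPM in wild-type cells of 5 to 10% RP share, 320 CPM at 10 to 15% and 159 CPM at 15% or more, the last over the first being 0.376 (0.331–0.425). In the knockout library it stood at 322, 236 and 93.1 CPM, a ratio of 0.290 (0.248–0.337). Its level was thus lower in each further bin, in both libraries. *Dgcr8* showed the steepest difference, with 29.1 against 6.19 CPM in the wild-type library (0.213, 0.104–0.390) and 20.98 against 4.54 CPM in the knockout library (0.217, 0.0994–0.423), though the last bin held only 11 and 10 UMIs. *Ago1* had ratios of 0.487 (0.327–0.703) and 0.284 (0.179–0.434).

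*Tarbp2* went the other way, from 42.0 to 100 CPM for wild-type cells (2.39, 1.96–2.90) and from 52.8 to 120 CPM for knockout cells (2.27, 1.87–2.77). *Xpo5* had ratios of 1.88 (1.29–2.70) and 1.77 (1.22–2.58) and *Drosha* of 1.35 (1.15–1.57) and 1.27 (1.09–1.49). *Dicer1* had 0.670 (0.481–0.916) and 0.743 (0.522–1.05). *Dis3l2* pointed in different directions, at 0.608 (0.326–1.06) and 1.60 (0.880–2.90), each interval holding 1. With a limit of 20% in place of 15% the knockout ratio of *Dis3l2* was 5.36 (1.60–14.3), from 21 cells. The 8 summed had ratios of 0.684 (0.635–0.737) and 0.724 (0.669–0.782), which rested on *Ago2*, since the other 7 summed to 1.16 (1.05–1.27) and 1.21 (1.10–1.34). In these ratios the partners of each cutting step lay on opposite sides of 1, *Drosha* from *Dgcr8* and *Tarbp2* from *Dicer1*. The knockout interval of *Dicer1* held 1, and not every setting given below kept these sides.

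Of the 5 members with at least 200 wild-type UMIs in the pair of bins, 2 were lower and 1 was higher by more than 1.5-fold, and of the 3 with at least 200 knockout UMIs 1 was lower and 1 higher. Differences of this size were common between these cells. Of the 5977 wild-type genes with as many UMIs 44.3% were lower and 24.0% higher, and of the 4602 knockout genes 40.3% and 28.1%, so the counts of members are not a result about them. In cells of 5000 to 10000 UMIs the *Ago2* ratios were 0.338 and 0.269 and those of *Tarbp2* 2.18 and 2.63, a comparison chosen after the data were seen. At that depth the intervals of *Xpo5* in knockout cells (1.44, 0.757–2.82) and of *Dicer1* in wild-type cells (0.674, 0.441–1.0006) held 1, and the call of no other member changed. That of *Dicer1* also held 1 with a total without RP genes (0.743, 0.533–1.02). Cells of 15% or more also had few mitochondrial UMIs, with medians of 0.186% and 0.271% against 1.71% and 2.52% at 5 to 10%. The ES cell markers summed to 5425 and 5250 CPM in them against 4484 and 4718 CPM, and the fibroblast markers to 768 and 806 CPM against 1563 and 1018 CPM. The part of the mitochondrial share in these differences was not tested, but with at least 0.5% mitochondrial UMIs, which left 38 wild-type and 86 knockout cells of 15% or more, *Ago2* had ratios of 0.378 and 0.360 and *Tarbp2* of 2.07 and 1.80. Apart from these and *Dgcr8* in knockout cells (0.228, 0.0271–0.857), the intervals of all members then held 1, among them *Ago1* at 0.719 (0.261–1.59) and 0.566 (0.266–1.07), *Dgcr8* in wild-type cells (0.314, 0.0377–1.15) and *Drosha* in wild-type cells (1.07, 0.673–1.62). *Drosha* did not keep its direction there in the knockout library (0.903, 0.643–1.24), nor *Xpo5* in the wild-type library (0.635, 0.0757–2.36).

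The 91 wild-type and 230 knockout cells under 5% RP share were shallow, with medians of 830 and 1214.5 UMIs, and their median mitochondrial shares were 4.32% and 5.99%. Of them 7 and 11 were called feeder fibroblasts by the rule given further on. The ES cell markers summed to 1932 CPM in the wild-type cells under 5% and 4740 CPM in the others, and to 2816 and 4934 CPM in knockout cells. The fibroblast markers summed to 3855 against 1279 CPM and 1436 against 874 CPM. Beyond leaving out the called fibroblasts, their part in the values that follow was not tested. Against the other cells, the summed members had a ratio of 0.760 (0.558–1.01) from 47 UMIs among wild-type cells and of 1.15 (0.988–1.32) from 197 UMIs among knockout cells. Both intervals held 1, though not under every other setting. All genes with at least 200 UMIs had a median ratio of 0.812 among wild-type and 0.805 among knockout cells. The knockout interval lay above 1 without fibroblasts (1.18, 1.01–1.36), at 1000 UMIs or more (1.20, 1.03–1.40), among cells of 1000 to 5000 UMIs (1.41, 1.17–1.69) and with a limit of 10% (1.24, 1.17–1.31) or 15% (1.29, 1.20–1.38) in place of 5%. The wild-type interval lay below 1 with a total without RP genes (0.694, 0.509–0.924), and the wild-type direction turned with a limit of 10% (1.25, 1.19–1.31) or 15% (1.37, 1.28–1.48). Without fibroblasts the wild-type ratio was 0.882 (0.638–1.19). *Dicer1* in the knockout library stood at 80.3 CPM in these cells and 26.0 CPM in the others, a ratio of 3.09 (1.98–4.65), and *Dgcr8* at 43.2 and 16.1 CPM, a ratio of 2.69 (1.43–4.66). *Ago2* had a ratio of 1.34 (1.09–1.64) there. Without fibroblasts, the knockout cells under 5% and the others stood at 74.8 and 26.1 CPM for *Dicer1*. For *Dgcr8* the levels were then 45.6 and 16.2 CPM, and for *Ago2* 325 and 234 CPM. In the wild-type cells the *Ago2* ratio was 0.820 (0.544–1.19) from 28 UMIs, *Dicer1* was at 1.86 (0.742–3.86) from 7 UMIs, and *Drosha* was at 0.295 (0.0608–0.865) from 3 UMIs, the only interval of a member away from 1 there. Without *Ago2* the other 7 summed to ratios of 0.687 (0.413–1.07) and 0.991 (0.800–1.22). *Tarbp2* was scarce, with 3 knockout UMIs (0.132, 0.0271–0.387) and 1 wild-type UMI (0.186, 0.00470–1.04). Between cells of 1000 to 5000 UMIs the knockout ratios were 2.93 for *Dicer1*, 2.47 for *Dgcr8*, 1.88 for *Ago2* and 0.148 for *Tarbp2*. At the same depth the wild-type ratio of *Dicer1* was 4.22 (1.31–10.6) from 5 UMIs, an interval above 1, and that of *Drosha* 0.252 (0.00634–1.42) from 1 UMI, an interval that held 1. Of the 6 members with at least 200 knockout UMIs, 1 was lower and 2 were higher by more than 1.5-fold, beside 42.3% and 29.1% of the 6720 genes with as many. Of the 6 with at least 200 wild-type UMIs, 2 were lower and 2 higher, beside 42.3% and 27.2% of 7469 genes. These counts and shares were taken with 0.5 UMIs added to each sum, without which *Ago1*, at 0.610 from 2 UMIs, was a further one lower, and several wild-type ratios rested on 1 to 4 UMIs.

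Because the libraries held different shares of these cells, the library ratio was also taken within each RP bin. *Ago2* was lower in the knockout library at 5 to 10% RP share (0.758, 0.705–0.815), at 10 to 15% (0.738, 0.675–0.806) and at 15% or more (0.585, 0.486–0.702), but not under 5% (1.09, 0.711–1.72). With the knockout bins weighted as in the wild-type library, a calculation added after the data were seen, its ratio was 0.742, against 0.673 over all cells. *Ago2* was also lower in the knockout library in 5 of 5 bins of depth, with ratios from 0.505 to 0.933, though the intervals held 1 at 500 to 1000 UMIs (0.486–1.29) and at 1000 to 2000 UMIs (0.594–1.51). *Dicer1* was lower in 4 of 5 bins of depth, with 1.51 (0.965–2.35) at 2000 to 5000 UMIs, and *Dgcr8* in 3 of 5. Only the *Dicer1* intervals from 5000 UMIs up and the *Dgcr8* interval at 5000 to 10000 UMIs lay below 1. *Drosha* was above 1 in the bins other than 2000 to 5000 UMIs (0.949, 0.719–1.24). Its interval lay above 1 at 5000 to 10000 UMIs only (1.29, 1.14–1.44). *Drosha* stood above 1 in all 4 RP bins, from 1.08 to 2.82, with intervals above 1 at 5 to 10% (1.14, 1.0003–1.31) and at 10 to 15% (1.19, 1.04–1.37). The 2.82, under 5%, rested on 3 wild-type UMIs (0.871–14.5), and the interval at 15% or more (0.911–1.29) also held 1. The ratio of *Dicer1* was lowest at 10 to 15% (0.537, 0.404–0.708) and 0.788 (0.619–0.996) at 5 to 10%, and its intervals held 1 in the other bins. The interval of *Tarbp2* lay above 1 at 5 to 10% (1.26, 1.03–1.53) and that of *Dgcr8* below 1 in the same bin (0.720, 0.536–0.959). Both held 1 in the other bins, where *Tarbp2* was at 1.02 (0.834–1.24) at 10 to 15%. With the reweighted bins the *Tarbp2* ratio was 1.16, against 1.25 over all cells. No RP bin gave *Xpo5* or *Ago1* an interval away from 1, and *Dis3l2* had one at 5 to 10% only (0.533, 0.324–0.848). By depth, *Xpo5* had one at 2000 to 5000 UMIs, a ratio of 2.50 (1.38–4.63) from 20 wild-type and 31 knockout UMIs.

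**Figure D4:**
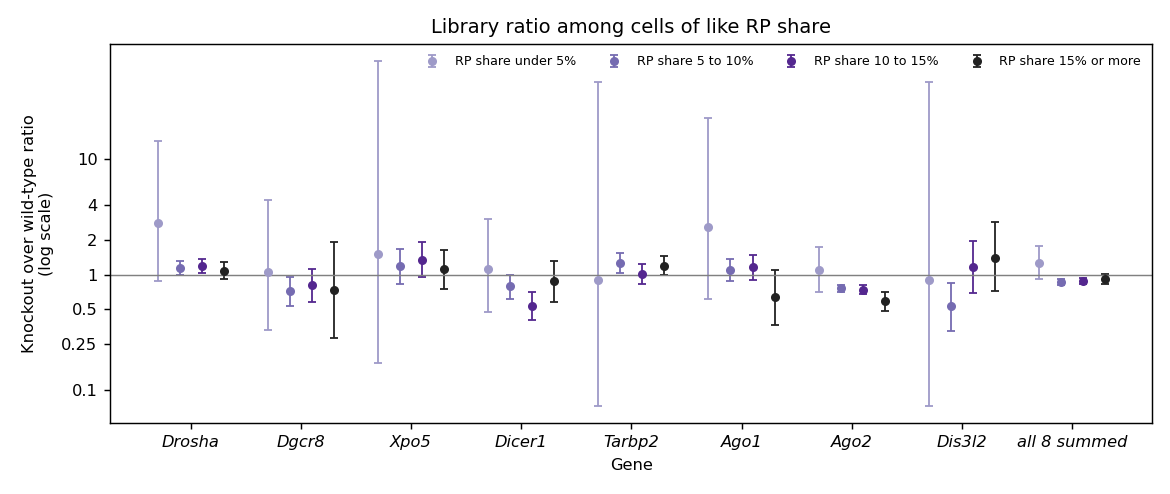
Knockout over wild-type ratio (log axis) of each gene and of the 8 summed among cells of the same RP share, with exact 95% intervals. The *Ago2* points lie below 1 in the bins from 5% up, at 0.758, 0.738 and 0.585, and the bin under 5% has the widest intervals for every gene.

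Cells of 10000 UMIs or more stood at 608 CPM summed over the 8 genes and those of 500 to 1000 UMIs at 537 CPM among wild-type cells, a ratio of 1.13 (0.863–1.51), and at 552 and 536 CPM among knockout cells, a ratio of 1.03 (0.855–1.25). Between these ends of the depth range the intervals of the sums and of every single member with a ratio held 1. In between, the sum of the knockout cells was lower at 2000 to 5000 UMIs, with 473 CPM (432–518) against 552 CPM (530–575) at 10000 or more. *Dicer1* in knockout cells stood at 41.8 CPM (30.2–56.6) at 2000 to 5000 UMIs and at 21.2 CPM (16.7–26.4) at 5000 to 10000. Only 2 wild-type and 3 knockout members had at least 200 UMIs in the outer pair of depth bins, and 0 of them differed by more than 1.5-fold. Of the 2451 wild-type and 3973 knockout genes with as many UMIs, 14.2% and 16.0% were lower in the deep cells and 28.9% and 23.8% higher. Barcodes under 500 UMIs, which were not kept, summed to 660.5 and 591 CPM.

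Feeder fibroblasts were called by the share of UMIs on *Col1a1*, *Col1a2* and *Col3a1*, at least 0.5% and at least 5 UMIs, which gave 41 wild-type cells (3.50% of UMIs) and 21 knockout cells (1.16% of UMIs). Of 14 other fibroblast markers, 14 were higher in them in both libraries, and of 10 ES cell markers 1 was higher in wild-type and 0 in knockout fibroblasts. The 8 genes together were lower in the fibroblasts, at 408 against 639 CPM for wild-type cells (0.639, 0.544–0.745) and 239 against 537 CPM for knockout cells (0.445, 0.291–0.653). *Ago2* stood at 221 against 353 CPM (0.626, 0.502–0.771) and 82.8 against 237 CPM (0.350, 0.160–0.666), and *Drosha* at 46.7 against 105 CPM (0.443, 0.266–0.695) and 46.0 against 122 CPM (0.377, 0.122–0.883). The knockout fibroblast values rest on 9 *Ago2* and 5 *Drosha* UMIs. Median UMIs were 9273 in wild-type and 2295 in knockout fibroblasts, against 6107 and 5072 in the other cells, and median mitochondrial shares of the fibroblasts were 1.34% and 2.46%. *Tarbp2* had 3 fibroblast UMIs in each library, with ratios of 0.131 (0.0269–0.384) and 0.403 (0.0828–1.18). *Dicer1* had 22 and 4 fibroblast UMIs, with ratios of 1.41 (0.876–2.17) and 1.33 (0.359–3.44), and both intervals held 1. *Dgcr8* and *Dis3l2* had 0 UMIs in the knockout fibroblasts, which allows up to 27.6 CPM and so was not informative beside the 17.2 and 9.42 CPM of the other cells. In each library 6 members had at least 200 UMIs. *Dgcr8* was among them in the wild-type library only and *Xpo5* in the knockout library only. Of each 6, 3 were lower and 0 higher by more than 1.5-fold in the fibroblasts. Of all genes with as many UMIs, 43.1% and 40.0% were lower and 19.5% and 19.1% higher. The median ratio of all these genes was 0.755 for wild-type and 0.808 for knockout cells, beside 0.750 and 0.710 for the 6 members of each library. Lower levels in the fibroblasts were thus common, and the counts of members are not a result about them. Without the fibroblasts the library ratio of the sum was 0.841 (0.811–0.872), against 0.846 (0.816–0.877) over all cells.

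**Figure D5:**
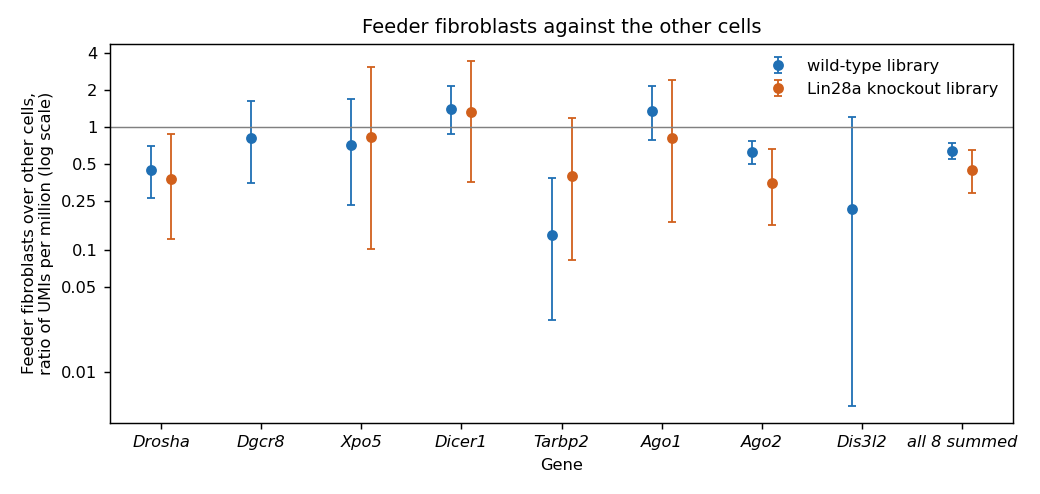
Ratio of CPM (log axis), feeder fibroblasts over the other cells of the same library, for each gene and the 8 summed, with exact 95% intervals. *Drosha* and *Ago2* lie below 1 in both libraries, *Dicer1* lies above it with intervals that hold 1, and the 2 genes with 0 UMIs in knockout fibroblasts have no point there.

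The wider pathway was described with a list of 35 genes, of which 32 had at least 200 UMIs. Past 1.5-fold, 3 were lower and 0 higher in the knockout library, beside the 8.45% and 6.49% of all genes given above. The 3 include the targeted gene and are near their share, so these counts are not a result about the list. The 3 were *Lin28a* itself, *Ddx6*, an RNA helicase of P-bodies that acts in microRNA silencing (186 and 90.4 CPM, ratio 0.485, 0.447–0.525), and *Xrn2*, a nuclear 5′ to 3′ exonuclease (186 and 108 CPM, 0.579, 0.537–0.624). The median ratio of the 32, *Lin28a* among them, was 0.862 and 25 of them were below 1, as were 47.7% of all 9835 genes. Unlike those of the 8 genes, the library ratios of the list were not taken within RP bins, of which the libraries held different shares. Of the 9 decay genes in the list 8 were below 1, among them the 3′ exonuclease *Eri1* at 0.681 (0.586–0.789) and the decapping enzyme *Dcp2* at 0.693 (0.611–0.785). The largest ratios were those of *Snd1*, a nuclease-domain protein found with the silencing complex, at 1.49 (1.36–1.63), the Argonaute-associated helicase *Mov10* at 1.32 (463 and 490 UMIs), the RNA deaminase *Adar* at 1.25 (1.09–1.44), the deadenylase *Parn* at 1.24 (1.09–1.41) and the RNA-binding protein *Khsrp* at 1.18 (1.10–1.26). Of the genes that act with LIN28 on let-7, *Tut4* had 0.843 (0.744–0.956) and *Tut7* 0.765 (0.685–0.855). *Trim71*, a let-7 target and RNA-binding protein of ES cells, was at 356 and 313 CPM, a ratio of 0.879 (0.839–0.922). *Lin28b* had 40 and 35 UMIs and a ratio of 1.09 (0.672–1.76), so no higher or lower level of it was detectable at this depth.

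Along the RP share the list stood mostly on the side of *Ago2*. Between cells of 15% or more and of 5 to 10%, 20 of the 29 listed genes with at least 200 UMIs were lower by more than 1.5-fold for wild-type and 17 of 25 for knockout cells, and 0 were higher in either. All genes compared gave 44.3% and 40.3% lower and 24.0% and 28.1% higher. The part of the mitochondrial share in these counts was not tested. *Ddx6* had ratios of 0.280 (0.229–0.340) and 0.233 (0.176–0.304), *Xrn2* of 0.269 (0.220–0.327) and 0.272 (0.213–0.345), and *Lin28a* of 0.434 (0.347–0.539) and 0.293 (0.196–0.425).

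Over the 8 groups formed by 2 libraries and 4 RP bins, the genes whose log2 CPM was most like that of the summed members were *Rsrc2*, with a Pearson r of 0.976, *Ddx46* (0.966), *Smc4* (0.947), *Usp1* (0.943) and *Elovl6* (0.937). They were taken from 2013 genes with at least 2000 UMIs, whose median r was 0.0947. These groups share a library in sets of 4 and the bins differ in depth, so r is a description over 8 points. It also rests on *Ago2*, whose own r with the sum was 0.867. With the sum of the other 7 members, the r of the 5 named genes ran from -0.394 to -0.0893. *Smc4*, a condensin subunit, stood at 353 CPM in wild-type cells of 5 to 10% RP share and at 66.4 CPM in those of 15% or more.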

How the data were processed

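Both libraries, from wild-type mouse ES cells and from *Lin28a* knockout cells, were analysed. Whole-number UMI counts for every gene row and barcode were deposited, without normalization. The submitters' processing notes name build mm10 and Seurat 2.3.4, and the aligner, annotation and strand setting are not given in the sources used here. Of 54146 gene identifiers, 54079 matched GENCODE M21 (GRCm38) once their version was dropped. The limits for cells were those of the study's methods, and doublets were not called. Counts were summed over cells and scaled to total UMIs (CPM). Shares of all genes past 1.5-fold, and the members and listed genes counted beside them, were taken among genes with at least 200 UMIs after adding 0.5 UMIs to each sum. Intervals, at 95%, were Poisson for CPM, conditional binomial for ratios and Clopper-Pearson for shares, and shares at 500 UMIs used the hypergeometric distribution (Python 3.11.15, numpy 2.4.6, pandas 2.3.3, scipy 1.17.1). The code was tested on simulated counts. The 8 genes and all lists were chosen with earlier results of these data known. Named genes were the 8, *Lin28a*, the 5 largest and 5 smallest ratios of the pathway list, *Lin28b*, *Tut4*, *Tut7* and *Trim71* by role, the 5 most alike genes, overlapping genes, and *Mir* genes with at least 200 UMIs.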

Additional observations from a re-analysis of the deposited data

How the results depend on the processing

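Over 10 other settings (barcode depth, mitochondrial limit, fibroblasts, cells under 5% RP share, the deepest 5% of barcodes and 3 scalings), the summed ratio ranged from 0.818 to 0.855, and it was 0.876 with reweighted RP bins. The median of ratios scaling lowered ratios by 0.0499 on the log2 scale. Members lower by more than 1.5-fold numbered 1 (*Ago2*) without cells under 5% RP share and with median of ratios scaling, and 2 (*Ago2* and *Dgcr8*) without the deepest 5% of barcodes, and 0 were higher. Listed genes lower by more than 1.5-fold numbered 6 without the deepest 5% of barcodes, and 1 was higher at 1000 UMIs or more, without cells under 5% RP share or with a total without RP genes. Shares of all genes past 1.5-fold are given for the main setting only, so these counts are not a result about the members or the list. Under 5% RP share, the wild-type sum moved to 1.25 and 1.37 with limits of 10% and 15%. Per kb of exons, 4 wild-type and 3 knockout members kept their place in the order. At 15% RP share or more over 5 to 10%, the sum was 0.759 and 0.800 (wild-type and knockout library) with a total without RP genes, 0.622 and 0.656 from 20% RP share (9 and 21 cells), 0.614 and 0.656 with at least 0.5% mitochondrial UMIs, and turned to 1.16 and 1.21 without *Ago2*. *Drosha* in the knockout library turned to 0.778 from 20% RP share and 0.903 with at least 0.5% mitochondrial UMIs, and *Xpo5* in the wild-type library to 0.635 with the latter. From 20% RP share, among members with a UMI there, intervals away from 1 were left to *Ago2* in both libraries and *Tarbp2* in the knockout library, and gained by *Dis3l2* in the knockout library (from 1.60 to 5.36). *Ago1* moved from 0.487 to 0.951 and *Dis3l2* from 0.608 to 1.31 in the wild-type library, and *Dicer1* from 0.743 to 0.2499 in the knockout library. *Dis3l2* in the knockout library was at 0.956 with at least 0.5% mitochondrial UMIs. The ratio of cells with *Drosha* was 0.951 without thinning and 1.12 with it. The cause of these shifts was not tested. The settings for cells of 15% or more and the reweighting were chosen after seeing the data. No paired analysis was possible because each condition had 1 library. Without the deepest 5% of barcodes the interval of *Dis3l2* lay below 1 (0.712, 0.521–0.967). Few UMIs limit *Dis3l2*, *Lin28b*, the fibroblasts and cells under 5% RP share.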

Other observations

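The count tables held 1193 genes whose symbols start with *Mir*, of which 146 had a UMI and 9 had at least 200. These rows count polyadenylated RNA that overlaps a microRNA locus and not the mature microRNA. *Mir22hg*, the host transcript of miR-22, had 24.3 CPM among wild-type and 14.2 CPM among knockout cells, a ratio of 0.586 (0.473–0.722). *Mir124-2hg*, a host transcript of miR-124, had 22.3 and 31.7 CPM and a ratio of 1.42 (1.20–1.69). Among multicopy loci, *Mir684-1* and *Mir684-2* had ratios of 0.576 (0.472–0.700) and 0.643 (0.522–0.790), and *Mir692-1*, *Mir692-2* and *Mir692-3* of 1.49 (1.21–1.84), 1.09 (0.996–1.20) and 1.23 (1.15–1.33). Reads of such near-identical copies could be split or shared by the counting, so their levels are uncertain. *Mir682* had a ratio of 1.31 (1.03–1.68), and *Mir703*, the most abundant of the 9 rows, had 6525 and 5793 UMIs and a ratio of 1.11 (1.07–1.15).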
